A study of Hordeum vulgare with 4 samples.

Results

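In leaves of barley that overexpressed a heat stress transcription factor, 102 loci with almost no RNA in wild type had a higher value. The labels of these leaves also name a treatment at 42 °C, which those of wild type do not. The 102 loci were picked out of 17771 loci in the deposited table. A locus had to carry a HORVU gene name, which is the name of a barley gene model, and lie in an interval under 20000 bases, which left 15908 loci. Its transcripts then had to sum to at least 30 FPKM in the transgenic group and to at most 5 FPKM in wild type, with a ratio of 8 or more after 1 FPKM was added to each sum. FPKM is a read level scaled by transcript length and by the depth of the library. Because the members were chosen from these 2 values, the size and direction of their difference are a description and are not tested.

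The transgenic group was 2 leaf samples of the cultivar Golden Promise in which HvHSFA6a was expressed constitutively. The labels give these samples a treatment of 42 °C for 30 minutes. The wild-type group was 2 leaf samples of untransformed plants of the same cultivar, labelled as controls, so genotype and labelled treatment cannot be told apart. All leaves came from plants of 3 weeks that were raised on 16 h of light, at 18 °C in light and 16 °C in dark, and the protocols also name a chamber at 34 °C for both genotypes. The promoter of the transgene is not given in the labels, the transgenic samples carry different codes, and whether they are of 1 line is unknown. The table holds 1 whole-number FPKM value per group and transcript, so no value here has a replicate check, and depth cannot be known. Over all transcripts the values summed to 949171 FPKM in the transgenic group against 942627 FPKM in wild type. Directions follow the column headers. In the authors' deposited table the word beside the main transcript of a member is that for a fall at 59 of the 102, against the headers. At 35 it is the word for a signal specific to the transgenic group, which has the direction of the headers, and at 8 it is the word for baseline. Directions here would turn if the headers were exchanged.

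Heat stress transcription factors bind short elements in the promoters of their targets. Their best known targets encode heat shock proteins, chaperones whose transcripts are scarce in unstressed leaves and abundant during heat, and in plants many genes of small heat shock proteins lack introns. The table pairs no member with a product, and 0 of the 102 names were found in the RefSeq gene table of the assembly MorexV3, so what the members encode is not analysed here. They are described by their level, structure, position and support. Where markers of heat or of leaf cell types stand among them was for the same reason not analysed.

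The members together held 13251 FPKM in the transgenic group against 204 FPKM in wild type, or 1.40% and 0.0216% of all FPKM. Transgenic sums ran from 30 to 1801 FPKM with a median of 54.5 FPKM, and wild-type sums from 0 to 5 FPKM with a median of 2 FPKM. Most members were of moderate level. In the transgenic group 44 of them lay from 30 up to 50 FPKM, 39 from 50 up to 100 FPKM, 13 from 100 up to 500 FPKM and 6 at 500 FPKM or more. The 5 highest held 6101 FPKM, or 46.0% of the transgenic sum of all members. In wild type 28 members were listed at 0, 18 summed to 1 FPKM, 23 to 2 FPKM, 5 to 3 FPKM, 15 to 4 FPKM and 13 to 5 FPKM. Since values are rounded, a listed 0 can stand for a value under 0.5 FPKM in each transcript. For the 74 members above 0 in wild type, the transgenic sum was 9.4 to 664 times the wild-type sum, with a median of 22.8 times.

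The same rule with the groups exchanged, asking for at most 5 FPKM in the transgenic group and at least 30 FPKM in wild type, was met by 20 loci. Their highest level was 104 FPKM in wild type, and 0 of the 20 reached 500 FPKM. No test of the difference between 102 and 20 loci was made, as the table holds no values per sample.

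**Figure D1:**
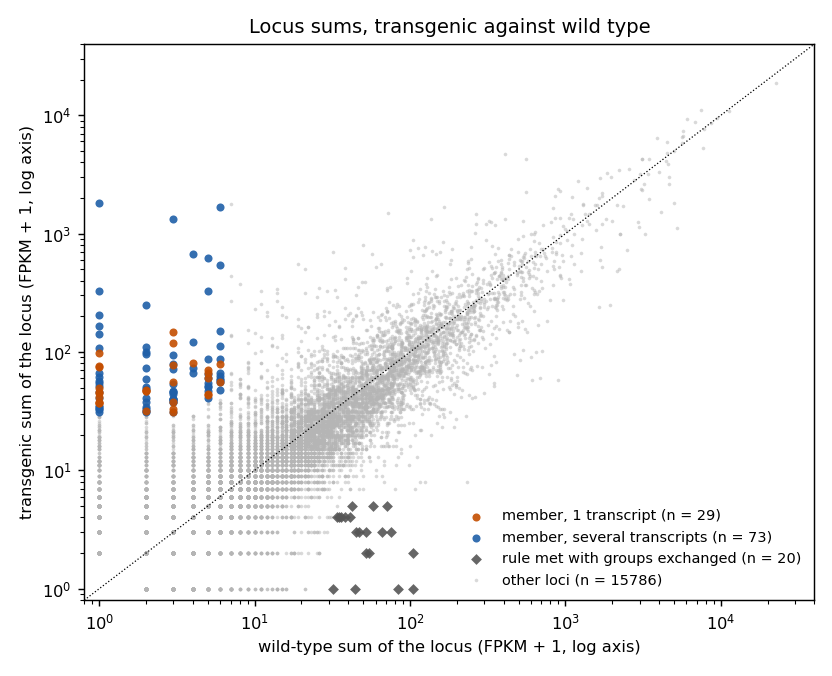
Sum of the transcripts of each locus in the transgenic group (vertical axis, FPKM + 1, log scale) against wild type (horizontal axis, FPKM + 1, log scale), for the 15908 loci the rule could keep. Members with 1 transcript (29) and with several (73) fill the upper left, where the rule placed them, and the 20 loci that meet the rule with the groups exchanged lie at the lower right; the dotted line marks equal values.

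The limits on level cut through a continuous range. The 13 members at 5 FPKM in wild type had 47 to 1673 FPKM in the transgenic group. Just outside, 8 loci at 6 FPKM in wild type met the other limits, with 55 to 1762 FPKM in the transgenic group and a median of 137 FPKM. At the lower limit, 6 members had 30 or 31 FPKM in the transgenic group against 0 to 2 FPKM in wild type, and 2 loci just below had 29 FPKM in the transgenic group against 2 FPKM in wild type each. A further 12 loci missed the ratio alone, with 32 to 38 FPKM in the transgenic group and 4 or 5 FPKM in wild type.

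Of the 102 members, 29 were listed with a single transcript and 73 with several. The 2 classes are given apart.

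The 29 single-transcript members had 30 to 147 FPKM in the transgenic group, with a median of 47 FPKM, and 0 to 5 FPKM in wild type, with a median of 2 FPKM. The highest lay on 2H from 744120806 to 744122135, with 147 FPKM in the transgenic group against 2 FPKM in wild type, 73.5 times as much. Next came a locus on 5H from 493801632 to 493802474, with 118 FPKM in the transgenic group against 2 FPKM in wild type. The other 27 single-transcript members stayed under 100 FPKM. The largest difference on the log2(FPKM + 1) scale in this class was 6.61, at HORVU2Hr1G006120 on 2H from 13007807 to 13008275. That locus had 97 FPKM in the transgenic group and was listed at 0 in wild type. Its transcript of 128 bases is the shortest main transcript of any member, and it takes 27.3% of the interval.

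The next 7 single-transcript members by level lay between 65 and 79 FPKM in the transgenic group. On 5H, the locus from 536511515 to 536513100 had 79 FPKM in the transgenic group against 3 FPKM in wild type. On 7H, the locus from 206624036 to 206628806 had 78 FPKM in the transgenic group against 5 FPKM in wild type. This interval also holds a second gene with 198 FPKM in the transgenic group against 15 FPKM in wild type, and the member's transcript of 258 bases fills 5.41% of it. The locus on 2H from 744272984 to 744274799 had 76 FPKM in the transgenic group against 2 FPKM in wild type. A pair on 1H was listed at 0 in wild type. One of them, from 529532511 to 529534760, had 75 FPKM in the transgenic group, and the other, from 528734839 to 528735557, had 74 FPKM. On 4H, the locus from 442251680 to 442253726 had 69 FPKM in the transgenic group against 4 FPKM in wild type, and that from 634782750 to 634783854 had 65 FPKM in the transgenic group against 4 FPKM in wild type. The other 19 had 30 to 59 FPKM in the transgenic group and 0 to 5 FPKM in wild type.

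Most single-transcript members had no intron. A transcript whose length equals its whole interval has nothing spliced out, and this held for 22 of the 29, or 75.9% (exact binomial 95% interval 56.5% to 89.7%, which treats loci as independent). Among other single-transcript loci it held for 144 of 476 whose transgenic sum was 30 FPKM or more (30.3%), and for 998 of 3628 at 5 FPKM or less in wild type (27.5%). It held for 2 of the 6 single-transcript loci that met the rule with the groups exchanged. The rule did not use structure, but no enrichment test was made on a list that was chosen by its values, so these shares are set side by side as a description.

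The share was also counted by transcript length. Here the other loci are all other single-transcript loci the rule could keep, at any level. Length and level were therefore not matched together. Of members with a transcript from 1000 up to 2000 bases, 14 of 16 had no intron, against 628 of 2142 other loci of that length (29.3%). From 500 up to 1000 bases the counts were 4 of 6 members and 385 of 1302 other loci (29.6%). All 3 members of 2000 bases or more lacked an intron, against 205 of 1017 other loci (20.2%). Under 500 bases the counts were 1 of 4 members and 243 of 749 other loci (32.4%). Among the other single-transcript loci the share was 26.2% under 5 FPKM in the transgenic group, 31.7% from 5 up to 30 FPKM and 30.3% above that.

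**Figure D2:**
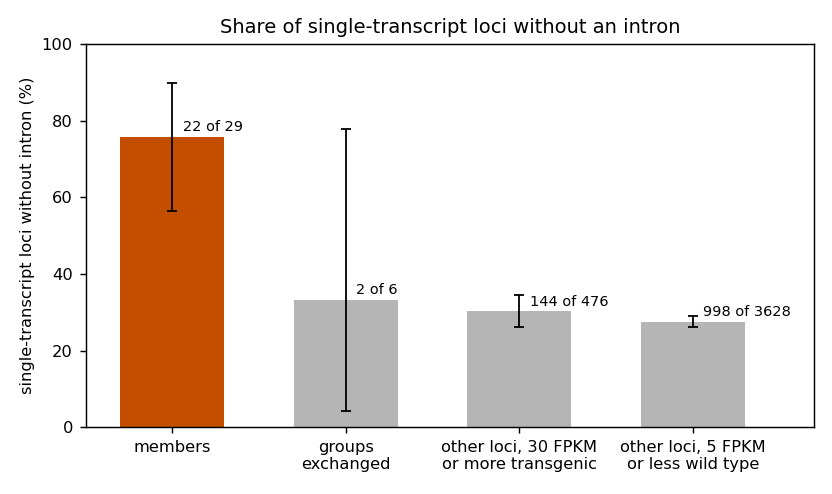
Percent of single-transcript loci whose transcript is as long as its interval and so has no intron. Bars show the members, the loci that meet the rule with the groups exchanged, and other loci with a transgenic sum of 30 FPKM or more or at 5 FPKM or less in wild type; whiskers are exact binomial 95% intervals and the counts stand beside the bars, with 22 of 29 for the members.

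Within the class, the 22 members without an intron had a lower median level than the 7 whose transcript was shorter than the interval. The 22 had 30 to 79 FPKM in the transgenic group, with a median of 44.5 FPKM, and their transcripts were 241 to 2250 bases long. The other 7 had 47 to 147 FPKM, with a median of 78 FPKM, and transcripts of 128 to 1424 bases. Among these 7, the 7H locus from 206624036 with 78 FPKM shares its interval with a second gene. A shorter transcript does not show an intron there. The ranges overlap, and the highest 3 single-transcript members were all among the 7. Among multi-transcript members, a transcript as long as the interval was the main one in 4 of 73 and was listed at all in 8 of 73, against 47 and 160 of 2825 other multi-transcript loci with a transgenic sum of 30 FPKM or more.

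The 73 multi-transcript members had 30 to 1801 FPKM in the transgenic group, with a median of 56 FPKM, and 0 to 5 FPKM in wild type. At 100 FPKM or more stood 17 of them. They held 287 transcripts, 2 to 12 per locus with a median of 3, against a median of 4 in other multi-transcript loci with a transgenic sum of 30 FPKM or more. Of the 316 transcripts of all members, 15 in 12 loci had class code j, the table's mark for a splice form that differs from the reference model, and the rest matched a reference transcript. A j form was the main transcript of 1 member. Such forms were listed in 608 of 3301 other loci at 30 FPKM or more, or 18.4%, and in 11.8% of the members. Over all loci the rule could keep the share was 9.93%. Each of these sets mixes single-transcript and multi-transcript loci. No single-transcript member held a j form, and among the 73 multi-transcript members the share was 16.4%. The share among other multi-transcript loci is not given here, so no difference is drawn from these values.

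The share of the main form in multi-transcript members was close to that in other loci. The main transcript is the one with the highest transgenic value, so with 2 transcripts its share cannot fall under 50%. In the members it held 24.2% to 100% of the transgenic sum, with a median of 66.7%. In other multi-transcript loci at 30 FPKM or more the median was 66.4%. With 2 transcripts the medians were 88.7% in 25 members and 89.5% in 626 other loci, and with 3 transcripts they were 76.6% in 18 members and 75.9% in 633 other loci. The main transcript held 90% or more in 17 members and under 50% in 15. Transcripts from a single group of start sites were listed in 12 of the 73 members (16.4%) and in 430 of the 2825 other loci (15.2%).

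Nearly all transcripts of a member were higher in the transgenic group. The rule largely sets this, as it caps the wild-type sum of all transcripts at 5 FPKM, so the counts are a description. In 64 of the 73 loci every transcript was higher, against 1812 of the 10669 multi-transcript loci the rule could keep (17.0%). Of all 316 transcripts 8 were lower, each of them listed at 0 in the transgenic group. In the 55 multi-transcript members above 0 in wild type, the main transcript also had the highest wild-type value, alone or tied, in 44, and it held the whole wild-type sum in 23. In 7 of the 55 the main transcript was listed at 0 in wild type. In wild type 206 of the 316 transcripts were listed at 0.

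The highest member of all was HORVU7Hr1G090410, on 7H from 551084476 to 551088911, with 1801 FPKM in the transgenic group against a listed 0 in wild type. This is a difference of 10.82 on the log2(FPKM + 1) scale. Its 7 transcripts come from 4 groups of start sites. The main one, of 1912 bases, had 907 FPKM in the transgenic group, and the next had 534, 260 and 90 FPKM. The last 3 had 5, 3 and 2 FPKM.

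On 4H, the locus from 496746552 to 496749295 had 1673 FPKM in the transgenic group against 5 FPKM in wild type, 335 times as much. Its main transcript of 2374 bases had 932 FPKM in the transgenic group against 5 FPKM in wild type, and the second, of 2136 bases, had 453 FPKM in the transgenic group and was listed at 0 in wild type. On 5H, the locus from 571502302 to 571503774 was instead made up of 1 main form. That form had 1214 FPKM in the transgenic group against 2 FPKM in wild type, 91.5% of the transgenic sum of 1327 FPKM. A locus on 7H from 173152331 to 173154450 was likewise made up mainly of 1 form, with 659 FPKM in the transgenic group against 3 FPKM in wild type out of sums of 676 FPKM in the transgenic group against 3 FPKM in wild type. The form is 592 bases long and fills 27.9% of the interval.

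On unplaced sequence, the locus from 117946510 to 117947631 had 624 FPKM in the transgenic group against 4 FPKM in wild type. Here 2 forms shared the signal, with 421 FPKM in the transgenic group against 2 FPKM in wild type for that of 525 bases, and 198 FPKM in the transgenic group against 2 FPKM in wild type for that of 1012 bases. On 5H, the locus from 2387176 to 2387869 had 538 FPKM in the transgenic group against 5 FPKM in wild type, and both of its forms were high in the transgenic group, at 417 and 121 FPKM. On 1H, the locus from 553944530 to 553960976 had 329 FPKM in the transgenic group against a listed 0 in wild type, with 97.9% in 1 form. The locus on 1H from 475876394 to 475877227 had 325 FPKM in the transgenic group against 4 FPKM in wild type. It is the member whose main transcript, with 231 FPKM in the transgenic group, has class code j.

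Another locus on 1H, from 496657261 to 496660692, had 248 FPKM in the transgenic group against 1 FPKM in wild type, and its main form held 45.2%. The tenth by level, on 3H from 621293428 to 621294961, had 204 FPKM in the transgenic group against a listed 0 in wild type, with 137 and 62 FPKM in its 2 main forms. The remaining 63 multi-transcript members had 30 to 166 FPKM in the transgenic group and 0 to 5 FPKM in wild type.

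**Figure D3:**
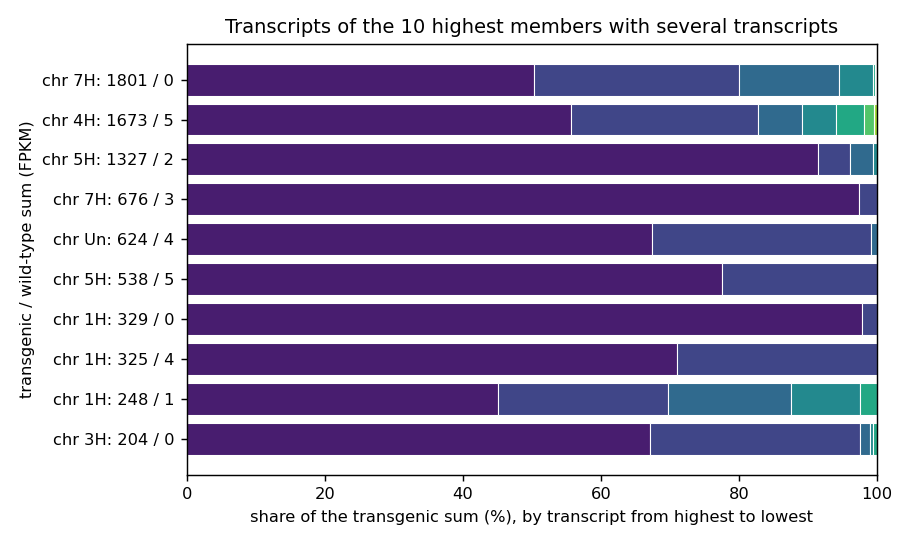
Share of the transgenic sum (horizontal axis, percent) taken by each transcript, from highest to lowest, in the 10 multi-transcript members of highest transgenic sum; labels give the chromosome and the transgenic and wild-type sums in FPKM. Main forms take from 45.2% to 97.9%, so some members are 1 dominant form and others a mixture.

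Support by the deposited p-values was uneven. Since these come from the contrast that chose the members, the counts are a description. A member was called when at least 1 of its transcripts was higher in the transgenic group with a Benjamini-Hochberg adjusted p under 0.05, computed over all 51141 transcripts from the authors' deposited table. Of the 102 members, 71 were called. By the same count 7.62% of all loci the rule could keep were called, and 13.3% of the other loci with a transgenic sum of 30 FPKM or more. Without adjustment, the authors' deposited table gives a transcript higher in the transgenic group with a p under 0.05 to 80 of 102 members, against 15.4% of the loci the rule could keep and 24.3% of the other loci at 30 FPKM or more. The smallest p in the authors' deposited table, 5e-05, stood at 61 of 102 members and at 1053 of the 15908 loci the rule could keep (6.62%). Counted by transcript, 77 of the members' 316 were called higher and 0 lower, and 2.70% of all transcripts in the table were called higher.

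The calls divided by the wild-type value. Among the 28 members listed at 0 in wild type 10 were called, and among the 74 at 1 to 5 FPKM 61 were, by Benjamini-Hochberg adjusted p from the authors' deposited table. For single-transcript members the counts were 5 of 10 at 0 and 17 of 19 above it. For multi-transcript members they were 5 of 18 and 44 of 55.

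The same division showed when transcripts were counted, pooled over loci. Of the members' transcripts with a transgenic value of 10 FPKM or more, 77 were listed at 0 in wild type and 14 of these were called. At 1 to 5 FPKM in wild type stood 89 such transcripts, of which 60 were called. The transcripts of all other loci divided the same way, with 31 of 198 called at 0 in wild type and 271 of 748 called at 1 to 5 FPKM. With the groups exchanged, 11 of 134 transcripts at 0 in the transgenic group and 10 FPKM or more in wild type were called lower, and so were 155 of 826 at 1 to 5 FPKM in the transgenic group. In the locus on 4H from 496746552, the main transcript with 932 FPKM in the transgenic group against 5 FPKM in wild type had the smallest p of the authors' deposited table. The second transcript of that locus, with 453 FPKM in the transgenic group against a listed 0 in wild type, had 0.233 there, in the authors' deposited table. The test behind these p-values was not given in the sources used here.

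In 22 members the authors' deposited table holds no p under 0.05, and their smallest p ran from 0.0545 to 0.321. Of these 22, 15 were listed at 0 in wild type and 18 had several transcripts. Their transgenic sums ran from 30 to 1801 FPKM with a median of 44.5 FPKM. HORVU7Hr1G090410, the highest member, is one of them, and its 7 transcripts had p-values from 0.119 to 0.39 in the authors' deposited table. The locus on 1H from 553944530, with 329 FPKM in the transgenic group against a listed 0 in wild type, had a smallest p of 0.21 in the authors' deposited table. A locus on unplaced sequence from 75066478 to 75067177, with 166 FPKM in the transgenic group against a listed 0 in wild type, had 0.102. HORVU2Hr1G006120, with 97 FPKM in the transgenic group against a listed 0 in wild type, had 0.0002 in the authors' deposited table, or a Benjamini-Hochberg adjusted p of 0.00744. On 3H, the locus from 621293428 with 204 FPKM in the transgenic group against a listed 0 in wild type had 2 transcripts at 5e-05 in the authors' deposited table.

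By level, 27 of 44 members from 30 up to 50 FPKM in the transgenic group were called. From 50 up to 100 FPKM it was 30 of 39, and at 100 FPKM or more 14 of 19. The exact binomial 95% intervals of these shares overlapped, at 45.5% to 75.6%, 60.7% to 88.9% and 48.8% to 90.9% in that order. The share called among other loci is not given by level here, so no trend with level is drawn. Among the 49 called multi-transcript members, 43 had 1 called transcript and 6 had several. Of all multi-transcript loci the rule could keep, members included, 614 had 1 called transcript and 84 had several. The call rested on the main transcript in 39 of the 49 members and on other transcripts alone in 10. Over all multi-transcript loci the rule could keep, these counts were 652 and 46. No test of these counts was made. The highest of the 10 members is the unplaced locus from 117946510. Its main form, with 421 FPKM in the transgenic group against 2 FPKM in wild type, had 0.0984 in the authors' deposited table, and its second form, with 198 FPKM in the transgenic group against 2 FPKM in wild type, had 5e-05.

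**Figure D4:**
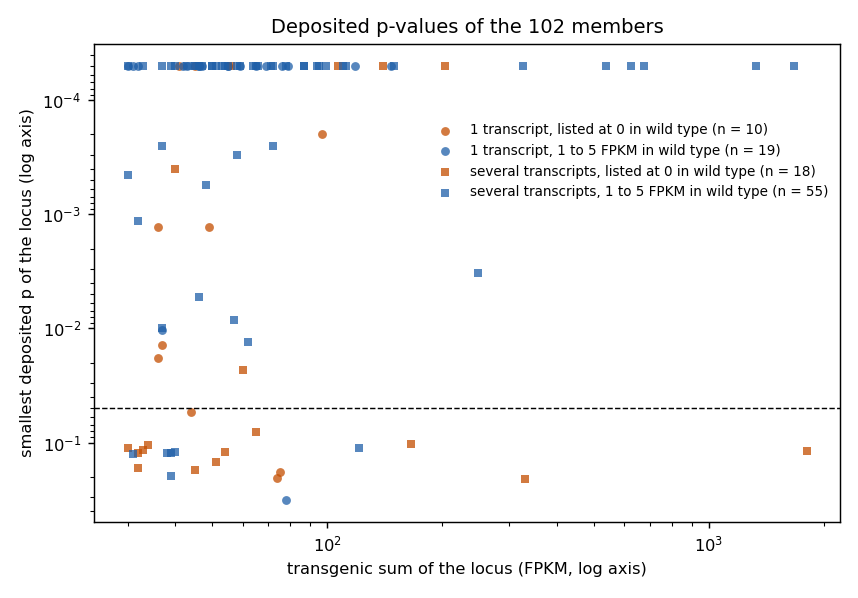
Smallest deposited p of each of the 102 members (vertical axis, log scale, smaller upward) against its transgenic sum (horizontal axis, FPKM, log scale), by number of transcripts (shape) and wild-type value (colour); the dashed line is at 0.05. The row of points at the top is the smallest p the table holds, 5e-05, and 15 of the 22 points below the line are members listed at 0 in wild type.

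The members were spread over the genome. On 1H lay 17, on 2H 13, on 3H 16, on 4H 11, on 5H 15, on 6H 8 and on 7H 16, and 6 lay on unplaced sequence. Chromosome 1H held 16.7% of the members and 12.6% of the loci the rule could keep. For 7H the shares were 15.7% and 14.0%, for 3H 15.7% and 15.1%, and for unplaced sequence 5.88% and 3.72%. Members had the lower share on 2H (12.7% and 15.5%), 4H (10.8% and 12.0%), 5H (14.7% and 15.8%) and 6H (7.84% and 11.3%). The 29 single-transcript members were all on the 7 chromosomes. Of the 96 members on chromosomes, 41 (42.7%) lay within 10% of the chromosome's extent from one of its ends, the extent being the last position in the table. Of the loci the rule could keep 40.2% did. By class, 15 of the 29 single-transcript members did (51.7%), and 26 of the 67 multi-transcript members on chromosomes (38.8%).

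Some members were neighbours. When the distinct intervals of the table were ordered along each chromosome, 8 of the 96 members had another member directly next to them, in 4 pairs. The closest pair lay on 3H with 4056 bases between the intervals. Its first member, from 499654910 to 499656615, had 32 FPKM in the transgenic group and its second, from 499660672 to 499662141, had 36 FPKM, and both were listed at 0 in wild type. On 7H, 5143 bases separated a locus from 639947810 to 639951667, with 48 FPKM in the transgenic group against 1 FPKM in wild type, from one at 639956811 to 639957827 with 49 FPKM in the transgenic group against a listed 0 in wild type. The levels within each of these pairs were close.

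On 5H, 5709 bases separated the locus from 493801632, with 118 FPKM in the transgenic group against 2 FPKM in wild type, from one at 493808184 to 493809187 with 55 FPKM in the transgenic group against 2 FPKM in wild type. The pair on 2H was farther apart, with 151 kb and no other listed locus between the members that begin at 744120806 and 744272984. Their values, given above, were 147 and 76 FPKM in the transgenic group against 2 FPKM each in wild type. A further pair on 6H lay 39.6 kb apart with 1 other locus between. There the interval from 495550890 to 495552000 had 94 FPKM in the transgenic group against 2 FPKM in wild type, and that from 495591635 to 495592186 had 36 FPKM in the transgenic group against a listed 0 in wild type. Whether neighbours share reads through near-identical sequence was not tested, since no sequence of these gene models was used here.

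The loci beside members were also counted, leaving out members themselves. Of 183 such direct neighbours, 23 (12.6%) were higher in the transgenic group by 4-fold or more on the FPKM + 1 scale, against 4.84% of the 15715 intervals that hold no member. Their median difference on the log2(FPKM + 1) scale was 0.23, against 0 over all intervals without a member. By Benjamini-Hochberg adjusted p from the authors' deposited table, 17 of the 183 held a transcript called higher in the transgenic group (9.29%), against 7.37% of the intervals without a member. No test was made of either share. From the second to the fifth place the share at 4-fold or more was 14.7%, 8.42%, 10.4% and 7.37% on the side of lower coordinates and 10.5%, 4.26%, 4.21% and 2.11% on the other.

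Of the 23 neighbours, 5 had a transgenic value of 30 FPKM or more. On 7H, the interval from 173201884 to 173205718 had 1762 FPKM in the transgenic group against 6 FPKM in wild type, so that it missed the rule by 1 FPKM. It lies next to the member from 173152331 with 676 FPKM in the transgenic group against 3 FPKM in wild type. On 1H, the interval from 475940986 to 475942012 had 554 FPKM in the transgenic group against 18 FPKM in wild type, beside the member from 475876394 with 325 FPKM in the transgenic group against 4 FPKM in wild type. On 5H, an interval from 493783019 to 493783954 had 129 FPKM in the transgenic group against 14 FPKM in wild type, beside the pair of members described above. On 7H, the interval from 60235666 to 60238632 had 95 FPKM in the transgenic group against 15 FPKM in wild type.

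**Figure D5:**
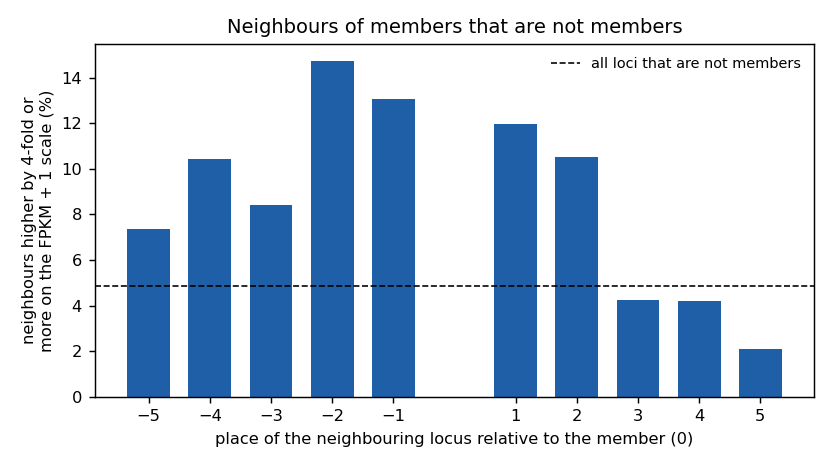
Percent of neighbouring intervals without a member that were higher in the transgenic group by 4-fold or more on the FPKM + 1 scale (vertical axis), by their place in order along the chromosome relative to a member (horizontal axis; 92 to 96 neighbours at each place). The dashed line is the share over all intervals without a member, 4.84%, and the 4 bars nearest to the member lie between 10.5% and 14.7%.

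In 6 of the 102 the interval is shared with a second gene, so that its length is not that of the member alone. Besides the 7H interval given above, the second genes had 0 to 13 FPKM in the transgenic group and 0 to 9 FPKM in wild type. The main transcript was under 300 bases in 7 members, a length at which FPKM rests on few positions. The highest of the 7 is on 7H from 622533621 to 622534099, with 140 FPKM in the transgenic group against a listed 0 in wild type. Rounding errors add up over the transcripts of a locus. With every transcript moved by 0.5 FPKM against the rule, 68 of the 102 loci would still meet it.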

How the data were processed

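Leaf RNA of 2 transgenic and 2 wild-type samples, grouped by their titles, was sequenced. The authors deposited 1 FPKM value per group and transcript, per the file headers, as whole numbers, treated here as a score and not as counts. The authors also deposited a p-value per transcript, from a test not given in the sources used here. STAR, Bowtie2, RSEM and DESeq2 are named per the submitters' processing notes, without versions or roles. A genome build not given in the sources used here underlies all coordinates, and how samples were combined is unknown.

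FPKM values were summed per gene identifier with pandas 2.3.3 in Python 3.11.15. Exact binomial intervals are from scipy 1.17.1. The planned fit needs values per sample, and each group has a single value, so it was not made. The Benjamini-Hochberg adjustment ran on the deposited p-values of all 51141 transcripts, with a threshold of 0.05, and no filter on low values was used. The rule and the adjustment were tested on simulated data. Starts were increased by 1, since the length equals the end minus the start in 1555 of 5804 single-transcript loci, and that number plus 1 in 0. The labels do not say whether replicates are separate plants, so the deposited p-values may reflect technical spread alone. Reads of near-identical genes or of opposite strands cannot be told apart in these values. Depth is unknown, and whole numbers limit precision.

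Gene IDs are printed for the member with the largest log2(FPKM + 1) difference in each class. Other members are given by position, namely the 10 of highest transgenic sum in each class, those at the limits and those that neighbour each other. Further loci, singled out by their p-values or as neighbours, were chosen after their values were seen. The members and the way to describe them were chosen with earlier results of these data known.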

Additional observations from a re-analysis of the deposited data

How the results depend on the processing

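The number of member loci was 102. It was 58 when 50 FPKM or more were asked for in the transgenic group, 58 when 5 FPKM were added to each sum before the ratio, and 20 with the groups exchanged; the first 2 ask for more by construction, and for the last the cause was not tested. Under the other 11 alternatives it lay between 68 and 135, with 68 when rounding was set against the rule, 69 at 2 FPKM or less in wild type, 135 with a transgenic sum of 20 FPKM or more, 86 when the highest transcript stood in for the sum, 92 without transcripts under 300 bases and 74 without members listed at 0 in wild type. Called members were 71 to 80. The share of single-transcript members without an intron lay between 75.9% and 80.8%, with 77.3% among called ones. Alternatives that leave out short transcripts, shared intervals, members at 0 or members without a call were chosen after seeing the data. The log2 difference of HORVU7Hr1G090410 was 14.14 and 8.50 with 0.1 and 5 FPKM added, and that of HORVU2Hr1G006120 was 9.92 and 4.35. No paired analysis was possible because each group has a single value, and for the same reason no replicate could be left out.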

Other observations

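Outside the rule on names and intervals, 20 more loci met its 3 limits on values. Of these, 17 lie in intervals of 20000 bases or more, 11 of which hold several gene identifiers, so that the interval is not the length of 1 gene. In wild type 15 of the 20 were listed at 0, and by Benjamini-Hochberg adjusted p from the authors' deposited table a call was found in 5 of the 20. The highest with a HORVU name lay on 7H from 113706896 to 113741181, with 374 FPKM in the transgenic group and a listed 0 in wild type, and a smallest p of 0.115 in the authors' deposited table. In another interval on 7H, from 113834054 to 113933170, 2 genes met the limits, with 97 and 31 FPKM in the transgenic group and a listed 0 in wild type for both. The 4 loci with other names were a plastid transfer RNA, a large-subunit rRNA and a pair of small nucleolar RNAs, and 0 of them were called.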
